A study of Mus musculus with 10 samples.

Results

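Hmgcs1, Fdft1, Sqle, Lss and Dhcr7, which encode enzymes of cholesterol synthesis, and Srebf2, which encodes the transcription factor SREBP2, were followed by gene symbol in all 10 RNA-seq libraries of hippocampal cells. These 6 genes were taken from 53379 counted genes, and all 6 were among the 19754 that passed the filter on low counts. They were selected on earlier results of these same libraries, in which any of the comparisons may have been used, so their levels and fold changes are a description and carry no test. None of the 6 is a receptor for lipoprotein uptake, so uptake is covered only by a further list of genes. In bulk RNA of this kind, fewer cells of a type and less RNA per cell cannot be told apart.

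The libraries were made from brain tissue of 5-week-old male mice, from hippocampal regions dissociated into a cell suspension and sorted for EYFP. EYFP was carried by the virus AAV9-TRE-ChR2-EYFP and switched on by a second virus, AAV9-c-Fos-tTA, in which the promoter of the activity gene c-Fos drives a transactivator that doxycycline holds off, so that cells active while doxycycline is withdrawn become labeled. The aversive group (2 libraries, replicates 1 and 3) received 4 foot shocks of 2 s and 1.5 mA. The appetitive group (2 libraries) met a female mouse for 1 h in a clean cage by the labels and for 2 h by the methods section. The neutral group (3 libraries) was placed in the conditioning cage with neither stimulus, and the mock group (3 libraries) stayed in the home cage and served as untagged control. How cells of an untagged control were sorted is not stated in the methods section. Every comparison with mock may therefore also set tagged beside untagged cells. Mice were pooled, 8 for a condition but 2 for the mock control by the methods section, and the labels do not say which mice entered which library, so the spread between libraries of a group may be partly technical. The 3 neutral libraries were labeled as total RNA and sequenced as pairs of 100 bp, while the other 7 were labeled as polyA RNA and read as single ends of 40 bp. The neutral libraries also had their own kit and sequencer. Every comparison with neutral cells therefore also compares these preparations, and preparation and experience cannot be told apart.

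Cholesterol is made in nearly all cells from acetyl-CoA, through mevalonate, isoprenoids, squalene and lanosterol. The adult brain makes its own, because plasma lipoproteins do not cross the blood-brain barrier, and glia supply much of it, with oligodendrocytes using large amounts for myelin. When sterol runs low in the endoplasmic reticulum, SCAP carries SREBP2 to the Golgi, where it is cut and released to the nucleus to activate most genes of the pathway, while the INSIG proteins hold the complex back when sterol is plentiful.

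Total counts ranged from 16968588 to 67650693 per library. Levels are in normalized CPM, in which counts are scaled by the filtered total of the library times its TMM scaling factor, 0.48 to 1.45. Because of this factor, levels do not add up to the same total in each library and are not shares of its counts. In this unit 3 counts correspond to 0.0347 to 0.235 CPM, the smallest level taken as detectable here. The sort took EYFP-positive cells of any type. The summed level of 6 neuron markers was 65.5 to 734 CPM, against 7440 to 802000 CPM for 6 oligodendrocyte markers. Mbp alone, the myelin basic protein gene, took 30.8% of all counts in appetitive replicate 1 and 0.983% in appetitive replicate 2. The appetitive libraries also stood apart from each other over many genes. Of 3526 genes at 50 CPM or more in replicate 2, 831 (23.6%) were under 1 CPM in replicate 1, where no pair of mock libraries exceeded 0.243%. By the same measure neutral pairs reached at most 2.32%, while the 2 aversive libraries also differed, at 5.2% and 8.49%. Among the 6 genes, 3 of the 4 at that level in appetitive replicate 2 were under 1 CPM in appetitive replicate 1, so values for the appetitive group are given for each library.

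The promoters of Hmgcs1, Srebf2 and Lss are shown because Hmgcs1 was lowest in all neutral libraries, Srebf2 encodes the regulator of the pathway and Lss was nearly absent from one group. RefSeq promoter windows (GRCm38.p6) were matched for 4 of the 6 genes, Dhcr7 being the other, and for 33 of 40 genes of the pathway lists. Each sequence is the plus strand and ends at or before the annotated start of its gene, all on the plus strand. The Hmgcs1 window covers chr13:119690101-119690350 (250 bases), that of Srebf2 chr15:82147019-82147180 (162 bases) and that of Lss chr10:76531355-76531587 (233 bases). Capitals mark 3 motifs, searched on both strands. TCACNCCAC and TCACCCCA, which can overlap each other, are forms of the sterol regulatory element bound by SREBP, and CCAAT, read as ATTGG on the other strand, is the box bound by NF-Y.
Hmgcs1: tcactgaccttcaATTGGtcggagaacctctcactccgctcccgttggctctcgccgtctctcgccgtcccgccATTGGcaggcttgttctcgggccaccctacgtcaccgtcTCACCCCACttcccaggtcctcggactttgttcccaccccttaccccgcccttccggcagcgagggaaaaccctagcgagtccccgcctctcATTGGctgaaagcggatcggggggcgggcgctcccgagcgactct
Srebf2: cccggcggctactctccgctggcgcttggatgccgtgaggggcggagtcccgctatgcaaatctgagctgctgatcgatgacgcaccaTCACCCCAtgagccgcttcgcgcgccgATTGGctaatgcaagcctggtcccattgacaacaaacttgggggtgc
Lss: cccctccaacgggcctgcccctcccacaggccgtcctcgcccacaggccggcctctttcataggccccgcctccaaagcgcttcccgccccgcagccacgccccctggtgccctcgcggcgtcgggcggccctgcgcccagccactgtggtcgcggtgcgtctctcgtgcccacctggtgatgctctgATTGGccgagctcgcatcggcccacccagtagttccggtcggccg

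The Hmgcs1 window held TCACNCCAC and the overlapping TCACCCCA, 137 to 129 bases before the RefSeq start, and 3 reverse CCAAT boxes. The Srebf2 window held TCACCCCA and 1 reverse CCAAT box. In the Lss window there was 1 reverse CCAAT box and neither form of the sterol element, which says only that these letters were not in this window. Among 32851 RefSeq windows of this kind, 1.05% held TCACNCCAC, 1.34% held TCACCCCA and 33.8% held CCAAT. A match is a description of letters and not evidence of a bound site.

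Hmgcs1 (ENSMUSG00000093930, chromosome 13, 119690379 to 119708260, plus strand, GRCm38) encodes HMG-CoA synthase, which makes the HMG-CoA from which mevalonate is formed. Its level was 345, 224 and 258 CPM in the 3 mock libraries, 357 and 216 CPM in the aversive libraries, 217 and 172 CPM in the appetitive libraries, and 65.3, 63.9 and 38.3 CPM in the neutral libraries. All 3 neutral libraries were thus below the other 7, and both appetitive libraries were below all 3 mock libraries, while the aversive range overlapped both mock and appetitive. Group means were 276 ± 62.7 CPM in mock (SD, n = 3), 286 ± 100.0 CPM in aversive (n = 2), 194 ± 32.2 CPM in appetitive (n = 2) and 55.8 ± 15.2 CPM in neutral (n = 3). The fitted log2 fold change was 2.36 (SE 0.593) for aversive against neutral, 1.80 (SE 0.588) for appetitive against neutral and -2.30 (SE 0.557) for neutral against mock. The direction held under every alternative tried for these 3 comparisons, where the values ran from 1.98 to 2.69, from 1.17 to 2.11 and from -2.59 to -2.10. Appetitive and aversive cells differed by -0.56 (SE 0.653), less than the SE.

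Srebf2 (ENSMUSG00000022463, chromosome 15, 82147181 to 82205379, plus strand) encodes the regulator of the pathway and hosts Mir33 in an intron. Mock libraries had 94.7, 41.8 and 131 CPM, aversive libraries 86.2 and 100.3 CPM, appetitive libraries 29.6 and 38.9 CPM, and neutral libraries 29.3, 35.0 and 48.0 CPM. Both appetitive libraries were below both aversive and all 3 mock libraries, and both aversive libraries were above all 3 neutral ones, whereas appetitive and neutral ranges overlapped. The log2 fold change was -1.44 (SE 0.855) for appetitive against aversive, 1.32 (SE 0.754) for aversive against neutral and -0.13 (SE 0.767) for appetitive against neutral. Across the alternatives the first ran from -1.85 to -1.06 and the second from 1.09 to 1.55, while the last ran from -0.64 to 0.16 and so has no settled direction.

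**Figure D1:**
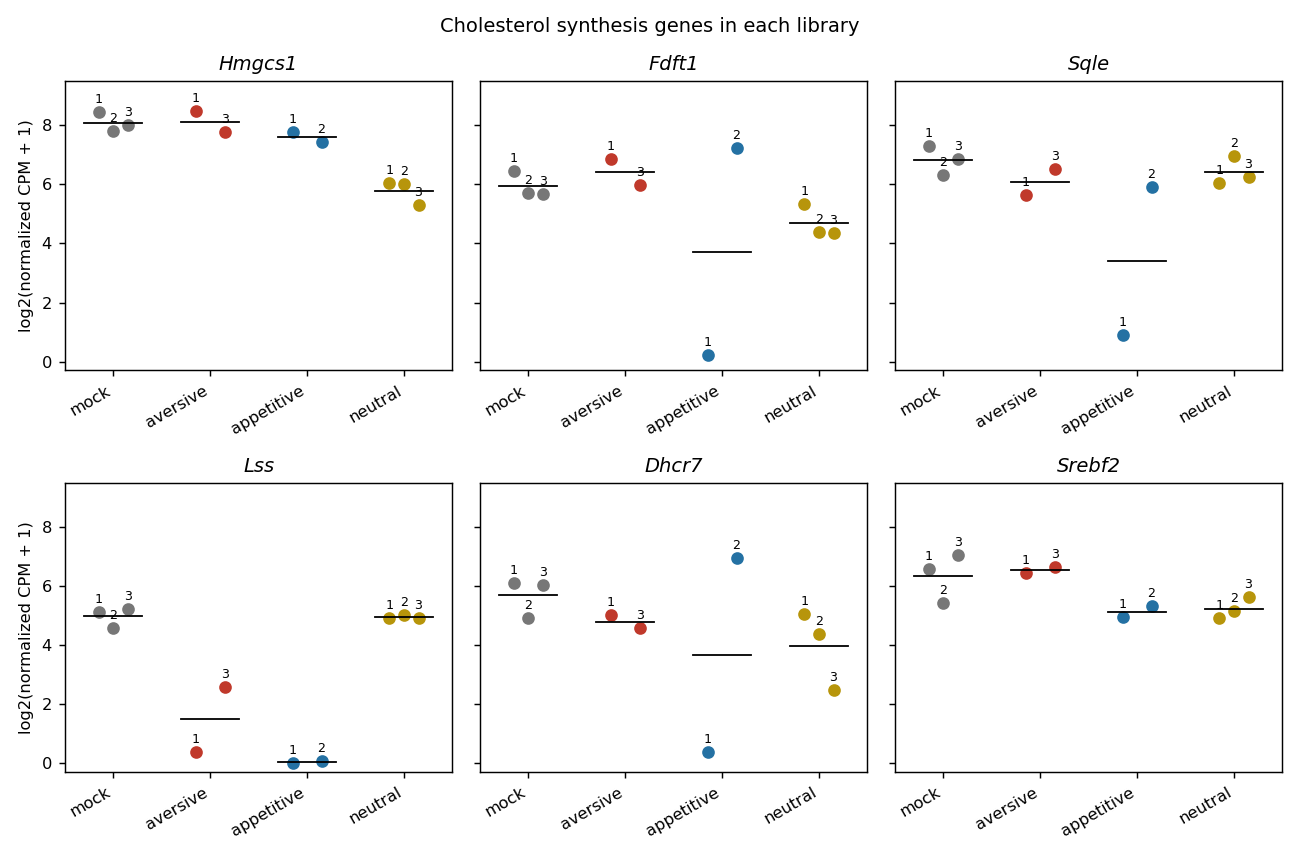
Level of each of the 6 genes in the 10 libraries, as log2 of normalized CPM plus a pseudocount of 1, with the replicate number beside each point and a line at the group mean on this scale. The 3 neutral libraries lie lowest for Hmgcs1, both appetitive libraries lie at or near 0 for Lss, and appetitive replicates 1 and 2 lie far apart for Fdft1, Sqle and Dhcr7.

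Lss (ENSMUSG00000033105, chromosome 10, 76531588 to 76557138, plus strand) encodes lanosterol synthase, which closes the ring of squalene epoxide to give the first sterol. It was measured at 33.8, 23.1 and 36.2 CPM in mock and at 29.2, 31.2 and 29.3 CPM in neutral libraries, with 444 to 2702 counts in each of these 6 libraries. Aversive replicate 1 had 6 counts (0.300 CPM) and aversive replicate 3 had 250 counts (5.01 CPM). Appetitive replicate 1 had 0 counts, which allows a level of up to 0.235 CPM at 3 counts, and appetitive replicate 2 had 1 count. All 4 libraries of the shock and female groups were below all 6 mock and neutral libraries, and both appetitive libraries were below both aversive ones. Since a fitted fold change against so few counts depends on the prior count, ratios were formed from summed counts per normalized total, with 95% intervals that cover counting error only. The neutral level was 957 times the appetitive level (172 to 37800), the mock level 1070 times (192 to 42200) and the aversive level 117 times (20.8 to 4630). Of the 256 aversive counts, 250 came from replicate 3, and the fitted log2 fold change of appetitive against aversive cells, -6.38 with all libraries, ran from -9.99 to -3.23 with 1 library left out, the last without aversive replicate 3. Aversive against neutral gave a fitted log2 fold change of -3.49 (SE 1.45), which was -2.56 without aversive replicate 1 and -6.62 without aversive replicate 3. Neutral against mock gave -0.05 (SE 1.11). The exons of Lss overlap 4930483K19Rik on the other strand, a gene that had at most 5 counts in any library.

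Fdft1 (ENSMUSG00000021273, chromosome 14, 63145150 to 63179578, minus strand) encodes squalene synthase, which joins 2 farnesyl groups at the branch point towards sterols. Mock libraries had 86.6, 51.0 and 49.6 CPM, aversive libraries 115 and 62.2 CPM, and neutral libraries 39.6, 19.9 and 19.5 CPM. Appetitive replicate 1 had 2 counts (0.156 CPM) while appetitive replicate 2 had 2820 counts (148 CPM), so the appetitive group held both the lowest and the highest of the 10 values. All 3 neutral libraries were below every mock and aversive library. The log2 fold change was 1.75 (SE 1.48) for aversive against neutral and 1.49 (SE 1.48) for appetitive against neutral, the latter turning to -7.43 without appetitive replicate 2. Its exons overlap those of Ctsb, which lies on the other strand at 660 to 2080 CPM, and counting ignored strand, so reads in the shared stretch could not be told apart.

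Sqle (ENSMUSG00000022351, chromosome 15, 59315077 to 59331192, plus strand) encodes squalene epoxidase, the oxygen-requiring step ahead of lanosterol synthase. It was at 158, 79.0 and 115 CPM in mock, 49.0 and 91.2 CPM in aversive and 64.9, 122 and 75.3 CPM in neutral libraries, so these 3 groups overlapped. Appetitive replicate 1 had 11 counts (0.860 CPM) and appetitive replicate 2 had 58.6 CPM. Both appetitive libraries were below all neutral and mock libraries, with a log2 fold change of -1.56 (SE 1.24) against neutral that became -6.75 without appetitive replicate 2.

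Dhcr7 (ENSMUSG00000058454, chromosome 7, 143823145 to 143848410, plus strand) encodes the reductase of the last step to cholesterol. Mock libraries had 68.5, 29.6 and 65.1 CPM, aversive libraries 31.3 and 22.8 CPM, and neutral libraries 32.0, 20.0 and 4.60 CPM. Appetitive replicate 1 had 4 counts (0.313 CPM) and appetitive replicate 2 had 122 CPM. No group lay wholly above or below another. Appetitive against aversive gave a log2 fold change of 1.18 (SE 1.70), and -6.56 without appetitive replicate 2.

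To set genes beside each other, levels were divided by the kilobases of all annotated exons of a gene, joined. The order depends on these lengths, which can exceed that of the transcript present, and Lss had the longest of the 6, 10.787 kb. Per kilobase of exon, Hmgcs1 was the highest of the 6 in the mock group, at 60.0 ± 13.7 CPM per kb (SD, n = 3). Sqle followed at 21.1 ± 7.12, Fdft1 at 14.8 ± 4.95, Srebf2 at 12.4 ± 6.24, Dhcr7 at 9.35 ± 3.71 and Lss at 2.88 ± 0.646 CPM per kb. The ranges of Sqle, Fdft1, Srebf2 and Dhcr7 overlapped from each to the next, while Hmgcs1 lay above and Lss below all of them. In the neutral group the order was Sqle at 15.8 ± 5.54, Hmgcs1 at 12.1 ± 3.31, Fdft1 at 6.22 ± 2.72, Srebf2 at 5.21 ± 1.33, Dhcr7 at 3.24 ± 2.36 and Lss at 2.77 ± 0.102 CPM per kb, and each neighbour overlapped the next in range.

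At an adjusted p under 0.05 in edgeR, Lss alone of the 6 genes was called, lower in appetitive than in neutral and than in mock cells. Of all 19754 genes, 6.17% were called between appetitive and neutral cells (5.23% lower) and 1.98% between appetitive and mock cells (1.96% lower). None of the 6 was called between appetitive and aversive cells (1.8% of all genes), aversive and neutral cells (0.0405%), aversive and mock cells (0.0%) or neutral and mock cells (0.0861%). In these comparisons, in this order, DESeq2 called 1, 2, 1 and 1 of them, beside 11.7%, 9.9%, 4.33% and 4.72% of all genes by that tool. An unadjusted p under 0.05 in edgeR was reached by 1, 2, 1 and 1 of them, with no share of all genes to set beside these. With the genes chosen on these libraries, nothing is read from these counts. Leaving out any 1 mock library, appetitive replicate 1, or neutral replicate 1 or 3 ended both Lss calls, leaving out neutral replicate 2 ended the call against mock, and without appetitive replicate 2 the calls were 3 against neutral (9.31% of all genes) and 4 against mock (6.01%).

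Counted by libraries that did not overlap, the 6 genes gave 2 lower and 0 higher in appetitive against aversive cells, where 20.1% of all genes were lower in this way. In aversive against neutral cells 3 were higher (14.4% of all genes) and 1 was lower (19.3%), and in appetitive against neutral cells 1 was higher (11.4%) and 2 were lower (27.2%). Against mock, 1 was lower in aversive (24.7%), 4 were lower in appetitive (38.9%) and 2 were lower in neutral cells (15.9%). The median log2 fold change of the 6 was -0.90 in appetitive against aversive cells, beside -0.48 over all tested genes. It was 0.92 beside -0.15 in aversive against neutral cells, 0.68 beside -0.91 in appetitive against neutral cells and -1.25 beside 0.08 in neutral against mock cells. Against mock it was -0.34 beside -0.13 for aversive and -0.94 beside -1.45 for appetitive cells. These comparisons share libraries and are not independent of each other.

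**Figure D2:**
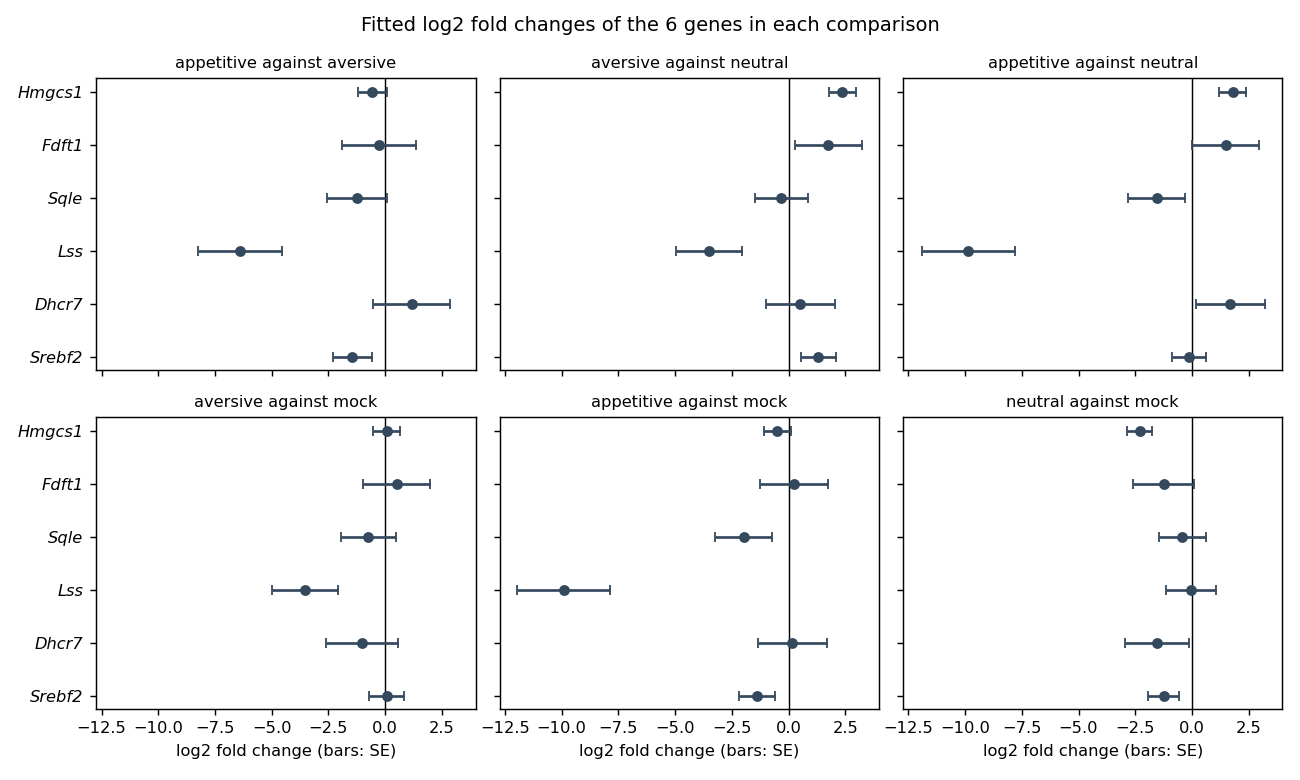
Fitted log2 fold change of each gene in the 6 comparisons, first group over second, with bars of 1 SE. Lss lies far to the left in the 3 comparisons of appetitive cells, where its position depends on the prior count, and Hmgcs1 is the gene whose bars lie farthest from 0 relative to their length in the 2 comparisons of aversive and mock cells with neutral cells.

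Across the 10 libraries, the levels of Fdft1, Dhcr7 and Sqle moved together more than the others on the log2(CPM + 1) scale. Pearson's r was 0.91 between Fdft1 and Dhcr7, 0.81 between Fdft1 and Sqle and 0.76 between Sqle and Dhcr7, all of which share the low value in appetitive replicate 1. The closest other gene was Sqle for Lss (r = 0.65), Srebf2 for Hmgcs1 (r = 0.57) and Hmgcs1 for Srebf2, and the lowest r was -0.40, between Hmgcs1 and Lss. Among 9589 other genes with a mean of at least 10 CPM, the 5 whose pattern was most like the mean pattern of the 6 were Nat8f4 and Lfng (r = 0.955 each), Hacd3 (0.943), Gpr146 (0.941) and Fam107a (0.932). These correlations describe 10 libraries of 4 groups and 2 preparations and carry no test.

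Markers of other cells moved with some of these levels. Summed over its 6 markers, the astrocyte level was 150 to 332 CPM in the 3 neutral libraries and 3070 to 14300 CPM in the other 7, which is the same division of libraries as for Hmgcs1. In 1 neutral library 1 of the 6 astrocyte markers was at 0 counts and in all other libraries none was. Microglia markers, 5 in all, summed to 33.7 to 236 CPM in neutral libraries and 626 to 7860 CPM in the others. The 6 neuron markers summed to 65.5 to 71.2 CPM in neutral libraries and 167 to 734 CPM in the others, which is again the same division. Of these 6, Snap25 was lower in all neutral than in all other libraries, while the other 5 overlapped. Of the single glial markers, Gfap, Cx3cr1 and Tmem119 overlapped too. The 4 choroid plexus markers went the other way, with 21100 to 130000 CPM in neutral and 849 to 13700 CPM in the other libraries, although Clic6 and Kl overlapped. The part of these cells in the level of Hmgcs1 was not tested. Oligodendrocyte markers, with none of 6 at 0 in any library, summed to 802000 CPM in appetitive replicate 1, where Fdft1, Sqle and Dhcr7 were under 1 CPM, and to 80000 CPM in replicate 2. Aversive replicate 1 and mock replicate 1 also had high sums, of 410000 and 365000 CPM, and there Fdft1 was at 115 and 86.6 CPM.

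**Figure D3:**
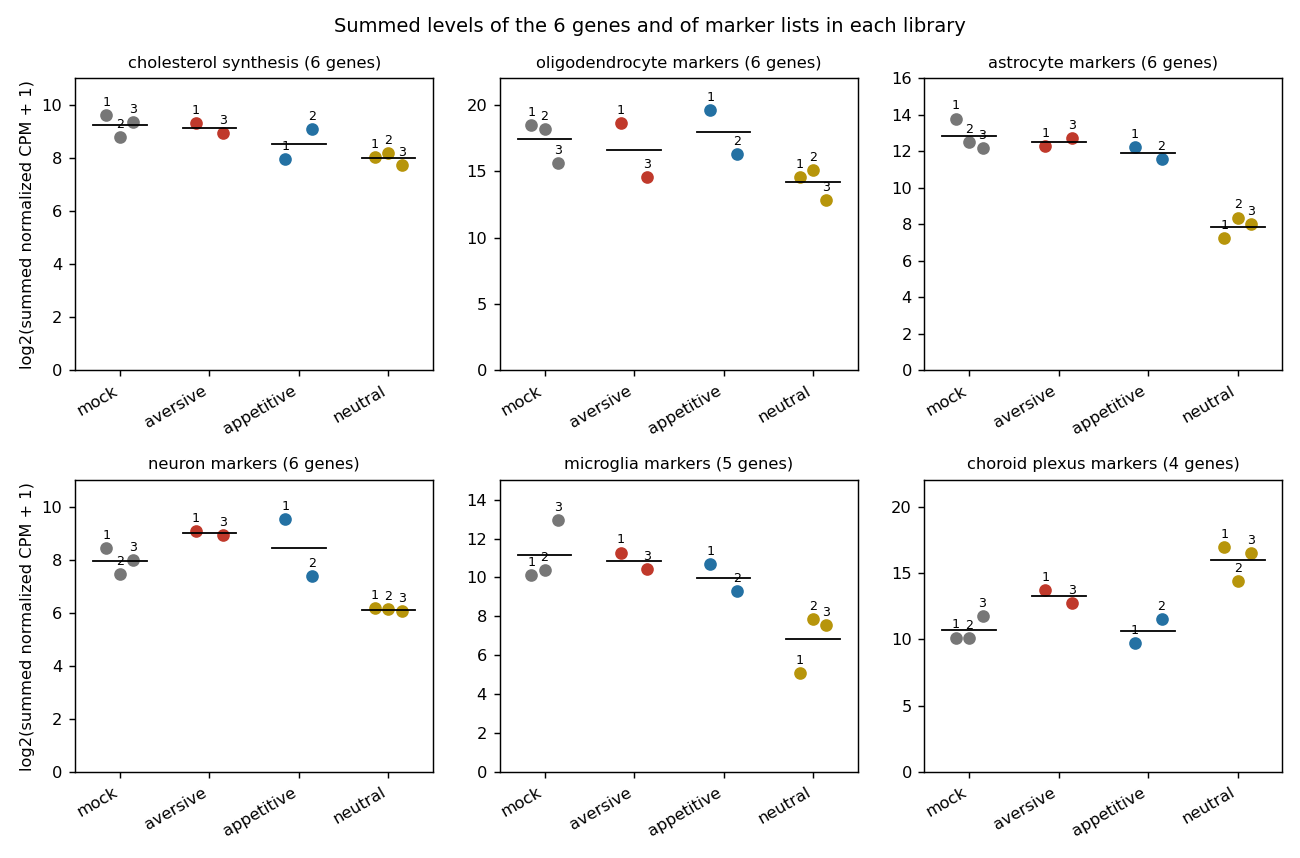
Summed level of the 6 cholesterol genes and of 5 lists of cell type markers in each library, as log2 of summed normalized CPM plus 1, with replicate numbers and a line at the group mean on this scale. The neutral libraries lie lowest for the sums of astrocyte, neuron and microglia markers and highest for choroid plexus markers.

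A list of 40 further genes, in 5 groups, placed the 6 genes in their pathway. All 40 passed the filter on low counts. In edgeR, 1 was lower between appetitive and aversive cells at an adjusted p under 0.05 (1.69% of all genes were lower), 1 was higher and 2 were lower between appetitive and neutral cells (0.937% and 5.23%), and 1 was lower between appetitive and mock cells (1.96%). None was called in aversive against neutral, aversive against mock or neutral against mock cells. There DESeq2 called 3, 2 and 2, beside the 9.9%, 4.33% and 4.72% of all genes given above for that tool. An unadjusted p under 0.05 in edgeR was reached by 4, 2 and 4, again with no share of all genes beside these. Because this list was also drawn up with earlier results known, its counts are not independent evidence.

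Among 14 other synthesis enzymes, 1 was called. Msmo1, the methylsterol monooxygenase that takes methyl groups off lanosterol's products, had 529 and 697 CPM in appetitive libraries and 106, 150 and 96.7 CPM in neutral libraries. Aversive replicates 1 and 3 were at 729 and 629 CPM and mock replicates at 473, 285 and 275 CPM, so the aversive and appetitive libraries lay above all neutral and mock ones. In appetitive against neutral cells Msmo1 rose by 2.38 on the log2 scale (SE 0.543, adjusted p = 0.0336, edgeR), a call kept in 7 of 18 alternatives. Idi1, the isoprenoid isomerase and the enzyme of lowest mean CPM over the 10 libraries, reached at most 6.50 CPM. The 14 enzymes summed to 335 to 502 CPM in neutral and 714 to 1520 CPM in the other libraries.

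Of 6 genes that control SREBP, Insig2, one of the INSIG anchors, was called in all 3 comparisons with appetitive cells. It had 0 and 2 counts in the appetitive libraries, 42.7, 50.2 and 39.1 CPM in mock, 69.5 and 3.03 CPM in aversive and 35.6, 103 and 43.1 CPM in neutral libraries. Insig2 fell in appetitive against neutral (adjusted p = 0.0239), mock (adjusted p = 0.0411) and aversive cells (adjusted p = 0.0451, all edgeR). By summed counts, the neutral level was 1020 times the appetitive level (282 to 8410), the mock level 665 times (184 to 5490) and the aversive level 351 times (97.0 to 2900). Srebf1, the gene of the related factor SREBP1 and of highest mean CPM in this list, was at 63.0 to 168 CPM in mock, 51.0 to 173 CPM in aversive, 47.8 to 90.9 CPM in appetitive and 47.5 to 90.8 CPM in neutral libraries, so all 4 groups overlapped. Mbtps2, a protease that releases SREBP, had the lowest mean level and 0 counts in both appetitive libraries and in aversive replicate 1, with at most 11.5 CPM elsewhere.

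The 5 lipoprotein uptake genes analysed had no call in any comparison in edgeR, with 0 to 1 at an unadjusted p under 0.05 and 0 to 1 called by DESeq2. Shares of all genes called by DESeq2 are given with the alternatives below, and nothing is read from these counts. Lrp1, a large endocytic receptor and of highest mean CPM over the 10 libraries in this list, ranged from 25.95 to 278 CPM. Its appetitive values (27.9 and 35.8 CPM) were below its aversive ones (59.2 and 86.7 CPM), and all other pairs of groups overlapped. Mylip, which encodes a ligase that degrades such receptors, was at 0 and 2 counts in appetitive libraries and at 11.8, 32.7 and 101 CPM in mock libraries. It was also near absent from single libraries of other groups, with 2 counts in aversive replicate 1 and 0 in neutral replicate 1. Aversive replicate 3 had 4.87 CPM, and neutral replicates 2 and 3 had 22.5 and 6.86 CPM.

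Of 9 genes of sterol handling and efflux, Cyp46a1, the neuronal 24-hydroxylase through which the brain clears cholesterol, was called. It had 2.03 and 1.73 CPM in appetitive, 176, 40.4 and 70.6 CPM in neutral, 44.6 and 102.7 CPM in aversive and 54.6, 19.0 and 20.7 CPM in mock libraries. Both appetitive libraries were thus below the other 8. Cyp46a1 fell by 5.67 on the log2 scale (SE 1.22) in appetitive against neutral cells (adjusted p = 0.0286, edgeR). Npc2, a lysosomal carrier of cholesterol and of highest mean CPM in the list, ranged from 154 to 376 CPM over all libraries. Stard4, a sterol carrier of the cytosol, had the lowest mean. It was at most at 0.313 CPM in aversive and appetitive libraries, at 0.254 to 8.39 CPM in neutral and at 12.3 to 15.3 CPM in mock libraries.

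The 6 fatty acid synthesis genes had no call in any comparison in edgeR, with 0 to 3 at an unadjusted p under 0.05 and 0 to 2 called by DESeq2. From these counts, too, nothing is read. Scd2, a desaturase and of highest mean CPM of all 40, was at 127 to 763 CPM in neutral libraries and 732 to 2936 CPM in the others. Acaca, which commits acetyl-CoA to fatty acids, had the lowest mean CPM of the list, at 0 to 41.4 CPM.

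The calls of Msmo1, Insig2 and Cyp46a1 were each lost when any 1 mock library was left out, and their direction was kept in all alternatives run. For Insig2 in appetitive cells, the call against neutral was kept in 9 of 17 alternatives and that against mock in 8 of 17. Its call against aversive cells was kept in 5 of 16 alternatives, and the call of Cyp46a1 in 9 of 18. Without aversive replicate 1 the log2 fold change of Insig2 between appetitive and aversive cells was -5.75, against -9.23 with all libraries.

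**Figure D4:**
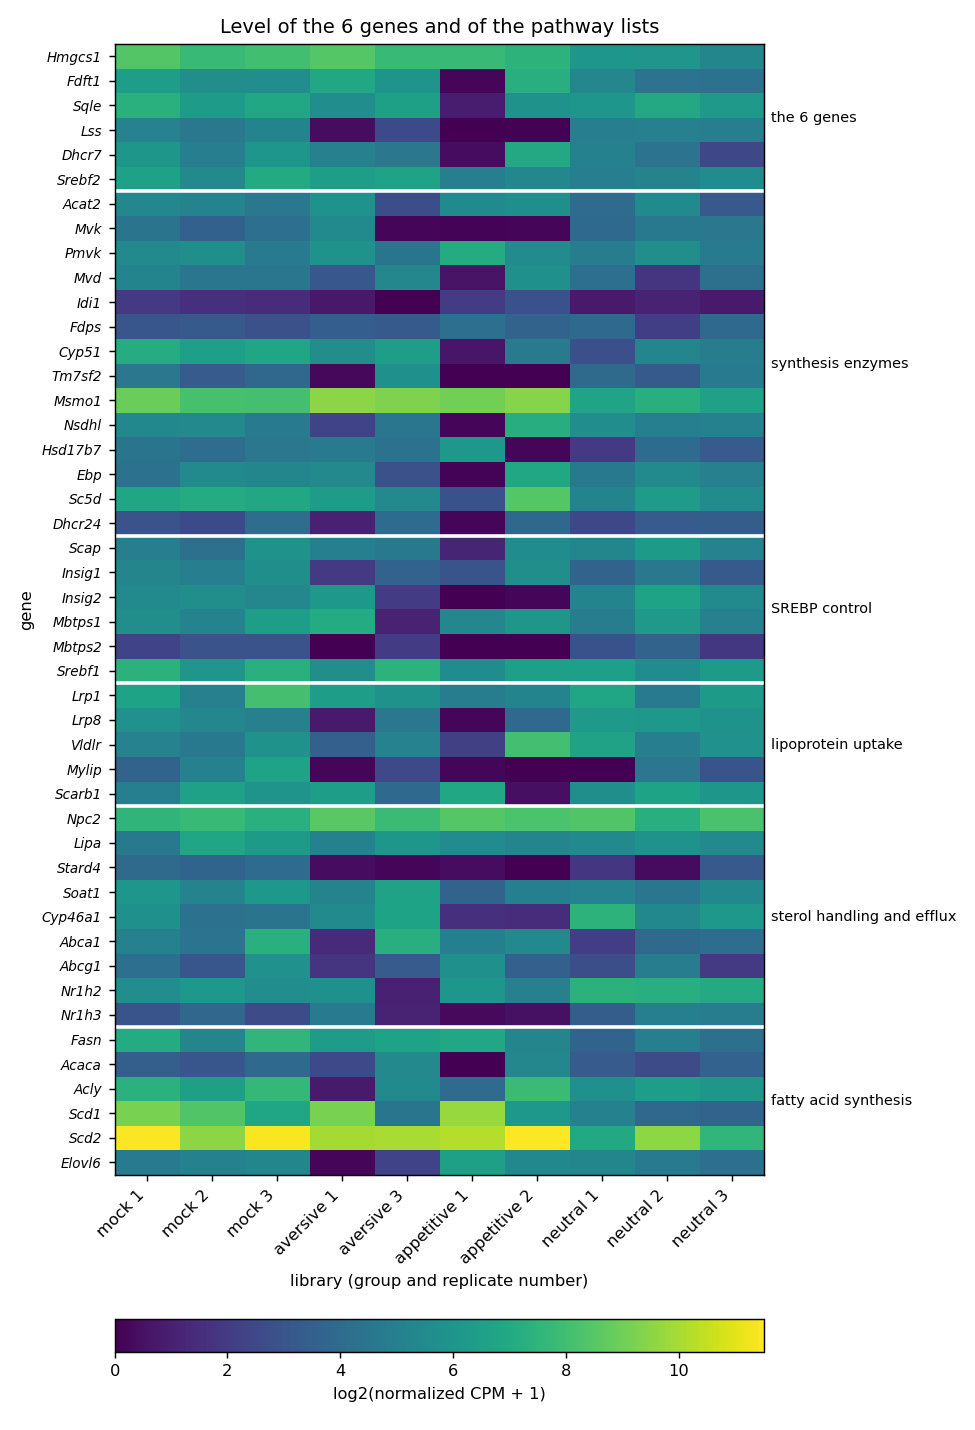
Level of the 6 genes and of the 40 genes of the 5 pathway lists in each library, as log2 of normalized CPM plus 1, 1 row a gene and 1 column a library. Dark cells in the appetitive columns mark genes such as Lss and Insig2 at or near 0.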

How the data were processed

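RNA-seq was performed on hippocampal cells sorted for EYFP in 10 libraries, of which the mock ones are called untagged control by the methods section. The authors deposited raw counts of 53379 genes, obtained with featureCounts (Subread), for which strand was ignored and the gene models were those of Ensembl GRCm38. Alignments were by STAR against mm10, and reads had been cut to 40 bp. The authors' own DESeq2 results were not used. Groups and replicates follow the labels.

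Counts were analysed in R 4.3.3 with edgeR 4.0.16 (filterByExpr, TMM factors of 0.48 to 1.45, 1 quasi-likelihood model of 4 groups, two-sided F tests, Benjamini-Hochberg over 19754 genes, prior of 5.05 degrees of freedom). The biological coefficient of variation was 122%. Normalized CPM were counts scaled by the filtered library total times its TMM factor. Lengths and positions came from GENCODE M21, with union exons. Total counts were 16968588 to 67650693, and a level of 3 counts was taken as the floor.

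The 6 genes, the lists and the naming rule were chosen with earlier results of these data known. Named were the 6 genes, pathway genes called in any comparison, the highest and lowest of each list and the 5 genes most alike. Other genes of the pathway were not analysed here, and 1 gene of a list is not reported. Alternatives were DESeq2 1.42.0, other scalings and filters, fits of the compared groups alone, the replicate block, and leaving out each library in turn. Steps were tested on simulated data.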

Additional observations from a re-analysis of the deposited data

Results flagged for a closer look

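Groups of 2 and 3 libraries are too small for a test of single libraries that stand apart, so none was made. Among the pathway genes analysed, 1 differed between the effects of the aversive and the appetitive experience against the shared neutral libraries, a difference that equals the direct comparison of both groups. Insig2 was lower in appetitive than in aversive cells by a log2 fold change of -9.23 (adjusted p = 0.0451, edgeR), with 0 and 2 counts in the appetitive libraries and with 151 counts in aversive replicate 3 against 1388 in aversive replicate 1. The gene had been put on its list with earlier results of these libraries known.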

How the results depend on the processing

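No member or pathway value that had been called changed its direction in any alternative. Of the 6 genes' fold changes under the alternatives, 585 stayed within the spread between libraries and 38 moved beyond it, most often without appetitive replicate 2 (12 of 36) or with the replicate block in a fit of the 2 groups alone (9 of 30). Fold changes that had not been called could change sign, most often with that block (7 of 30), without appetitive replicate 2 (6 of 36) or without aversive replicate 1 (5 of 36). Staying within the spread does not mean that the sign was kept. With the replicate block in all 10 libraries 4 of 36 changed sign and 0 moved beyond the spread. Of the pathway genes' calls, 38 were kept and 48 were lost.

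Of the 6 genes, 0 were called between appetitive and aversive cells, but 1 by DESeq2 and 0 to 2 with 1 library left out. DESeq2 called 2 in aversive against neutral, 1 in aversive against mock and 1 in neutral against mock cells, where edgeR called 0. Between appetitive and neutral cells the count of 1 became 2 by DESeq2, 0 with at least 10 counts in every library (3 of the 6 genes were then tested), 0 in a fit of the 2 groups alone and 0 to 3 with 1 library left out. Between appetitive and mock cells the count of 1 became 0 with at least 10 counts in every library and 0 to 4 with 1 library left out, and in neutral against mock cells that filter gave 1. For most of these settings no share of all genes is set beside the count, so nothing is read from the counts.

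Of the 40 pathway genes, 1 was called between appetitive and aversive cells, against 0 with library size alone, 8 by DESeq2, 4 with no filter, 0 with at least 10 counts in every library, 0 in the fit of the 2 groups and 0 to 4 with 1 library left out. For aversive against neutral cells the 0 became 3 by DESeq2, 2 with no filter and 0 to 1 with 1 library left out, and for aversive against mock 2 by DESeq2. For appetitive against neutral cells the 3 became 11 by DESeq2, 8 with no filter, 1 with at least 10 counts, 0 in the fit of the 2 groups and 0 to 9 with 1 library left out. For appetitive against mock cells the 1 became 8 by DESeq2, 3 with no filter, 0 with at least 10 counts, 6 in the fit of the 2 groups and 0 to 5 with 1 library left out. For neutral against mock cells the 0 became 2 by DESeq2 and 2 with no filter. Over all genes the calls rose too, to 4.33 to 17.8% by DESeq2 and 1.47 to 7.19% with no filter in these comparisons, and to 21.8% for appetitive against mock cells in the fit of the 2 groups. The cause was not tested, except that the filter of 10 counts left fewer genes to test and each library left out removed 1 sample from the estimate of the spread. Where a setting has no share of all genes beside it, nothing is read from its counts.

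The replicate numbers were not taken to pair the samples. Whether libraries of the same number were handled together is not given, and groups of 2 or 3 libraries are too small to tell. Deviations of same-numbered neutral and mock libraries correlated at 0.201, 0.113 and 0.027, and in the other comparisons at -0.076 to 0.158. With the replicate block in all 10 libraries or in the 2 groups, 0 of the 6 genes were called in appetitive against neutral and against mock cells, as were 0 of the pathway genes there and, in all 10 libraries, between appetitive and aversive cells. For the last, the block could not be fitted in the 2 groups alone.

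Against TMM, scaling by library size alone shifted the median fold change over all tested genes (log2) by -0.54 in appetitive against neutral cells, the largest of these shifts, and DESeq2's size factors by at most 0.28. Lss, Mvk, Tm7sf2, Insig2, Mbtps2 and Mylip had 0 to 3 counts in all over both appetitive libraries, so counting error is wide in their folds.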
